A study of Mus musculus with 6 samples.

Results

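The genes described here carry fatty acids into heart cells and oxidise them in mitochondria. The list names 34 mouse genes. It was drawn up by function, from uptake at the cell surface through the carnitine shuttle to beta-oxidation and electron transfer, with the genes that set malonyl-CoA, handle stored lipid, or act as thioesterase or uncoupler beside them. Of the 34 genes, 32 were measured, among 18193 genes in all. Acsl1, an acyl-CoA synthetase, has no probe set named to it here, and the probe set of Cpt1b, the muscle form of carnitine palmitoyltransferase 1, is annotated to further genes as well, so both were not analysed here. The activation of fatty acids to acyl-CoA therefore has no measured gene in this list.

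RNA from isolated cells of C57BL/6J mouse hearts was hybridised to 6 Affymetrix arrays, 2 in each of 3 groups. Neonatal cardiomyocytes and neonatal cardiac fibroblasts came from hearts at postnatal day 1; both sexes were used and Percoll, a density medium, separated the cells. Adult cardiomyocytes came from male hearts at 8 weeks and were released by Langendorff perfusion, in which the enzymes are passed through the coronary vessels. No genotype or treatment differed between the groups, and all cells were freshly isolated per the labels, although the labels also describe plating of dissociated cells. Effects of age, sex and isolation method cannot be told apart where adult arrays are set against neonatal ones. Whether the replicate arrays came from separate preparations is not stated in the labels, so p-values measure only a spread between arrays that may be technical. Values are log2 expression levels (RMA values), so a difference of 1 is a doubling, and levels are not compared between genes.

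Long-chain fatty acids reach the heart bound to albumin or are freed from lipoproteins by lipoprotein lipase, and they enter the cell with the help of CD36 and fatty acid transport proteins. Inside, they are bound by fatty acid binding proteins, joined to coenzyme A and passed to carnitine by CPT1 at the outer mitochondrial membrane, the step that malonyl-CoA inhibits. A carrier and CPT2 bring them into the matrix, where beta-oxidation shortens them and hands electrons to the respiratory chain. The heart of the newborn mouse shifts from glucose and lactate towards fatty acids after birth, and the adult heart draws most of its energy from them.

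Some arrays stood apart from the rest or went against a label. The titles of the 2 neonatal replicate 1 arrays each name the other cell type. The source name and cell type fields, which match each other, were used for grouping, and the markers followed them. The median of 12 cardiomyocyte markers was 14.12 on neonatal cardiomyocyte replicate 1 and 13.96 on replicate 2, and 14.05 and 14.04 on their adult counterparts. On fibroblast replicate 1 it was 7.72 and on fibroblast replicate 2 it was 11.53. Fibroblast replicate 2 thus held far more cardiomyocyte transcript than fibroblast replicate 1. For 12 fibroblast markers the median was 12.56 on fibroblast replicate 1 and 11.96 on fibroblast replicate 2, and between 7.80 and 9.40 elsewhere. Macrophage markers reached a median of 11.91 on fibroblast replicate 1 and 8.79 on fibroblast replicate 2, and lay between 5.25 and 8.01 on the cardiomyocyte arrays. Endothelial markers lay at 8.81 and 7.93 on neonatal cardiomyocytes, 6.42 and 7.30 on fibroblasts, and 8.45 and 9.56 on adult cardiomyocytes. For smooth muscle and pericyte markers the medians were 8.68 and 7.49 on neonatal cardiomyocytes, 5.80 and 7.56 on fibroblasts, and 8.15 and 9.68 on adult cells. The medians of 7 fat cell markers (3.85 to 4.997) and of 6 erythroid markers (4.28 to 5.07) were near the floor on all 6 arrays.

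The 32 genes were highest on the adult cardiomyocyte arrays, intermediate on the neonatal cardiomyocyte arrays and lowest on the fibroblast arrays. Their median level was 12.12 and 11.95 in the adult cells (replicates 1 and 2, the order kept throughout), 10.87 and 9.96 in neonatal cardiomyocytes, and 8.77 and 9.23 in fibroblasts. The groups did not overlap in this median. In bulk samples like these, fewer cells of a type and less RNA per cell cannot be told apart.

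**Figure D1:**
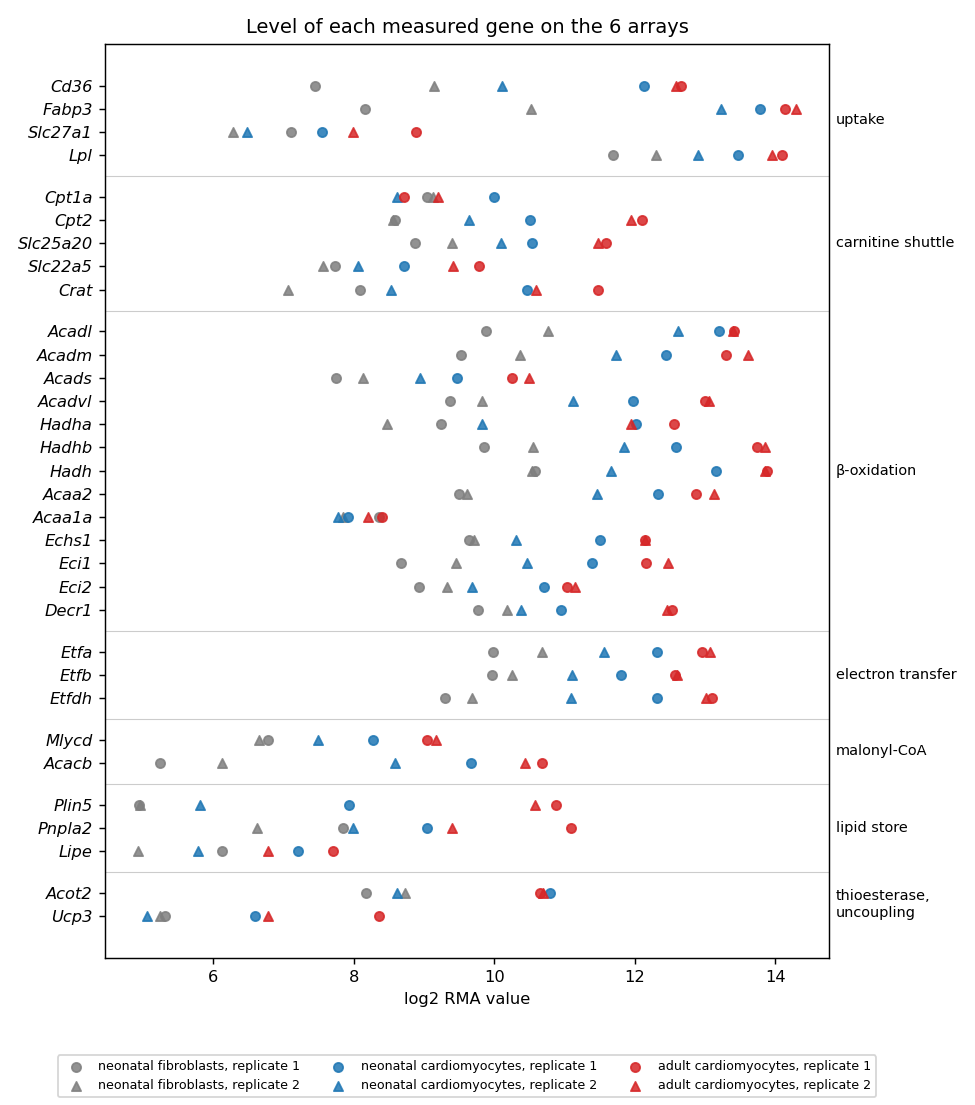
Level of each of the 32 genes on each of the 6 arrays, in log2 RMA units, ordered by role, with colour for the group and symbol for the replicate. The adult points lie to the right for most genes, and Cpt1a and Acaa1a are the genes whose adult and fibroblast points overlap.

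Adult cardiomyocytes against neonatal fibroblasts gave most of the calls. In limma's test with Benjamini-Hochberg adjustment, 26 of the 32 genes rose, by a median of 2.85 log2 units over all 32 (7.19-fold), and 0 fell. Over all genes, 21.0% were called in either direction, 10.1% as higher and 11.0% as lower, and the median difference was 0.09. At an unadjusted p under 0.05, 30 of the 32 were called, all higher, against 17.7% of all genes. Means were higher in the adult cells for 31 (55.9% of all genes), and the arrays did not overlap for 30 (37.8% of all genes). The genes that missed the threshold were Slc27a1, Cpt1a, Acaa1a, Lipe, Acot2 and Ucp3. The count rested on several single arrays. Without any 1 fibroblast or adult array, which leaves 1 array in that group, fewer or none of the 32 genes were called. The same held for the calls over all genes. The median difference was 2.54 without fibroblast replicate 1 and 2.83 without fibroblast replicate 2. It was 2.64 without adult replicate 1 and 3.08 without adult replicate 2. Cell type and age are joined in this comparison. The 2 comparisons below take them in turn, but share the neonatal cardiomyocyte arrays, and sex and isolation method go with age.

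Neonatal cardiomyocytes against neonatal fibroblasts gave 0 calls among the 32 genes in limma's test with Benjamini-Hochberg adjustment, against 0.819% of all genes in either direction and 0.676% as higher. At an unadjusted p under 0.05, 25 of the 32 genes were called, all higher in cardiomyocytes, against 8.95% of all genes called as higher. The mean was higher in cardiomyocytes for 31 genes (47.4% of all genes), the arrays did not overlap for 26 of them (22.3% of all genes did so in that direction), and the median difference was 1.42 log2 units (2.67-fold) against -0.02 over all genes. The result depended on which arrays were used: without neonatal cardiomyocyte replicate 2 the test called Acaa2, Acacb, Acadvl, Cpt2, Echs1, Etfdh, Hadh and Plin5, and without fibroblast replicate 2 it called Acadl and Fabp3. The median difference was 1.49 without fibroblast replicate 2, which held more cardiomyocyte transcript, and 1.49 without fibroblast replicate 1.

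Adult against neonatal cardiomyocytes gave 1 call, Decr1, which rose, against 2.30% of all genes in either direction, 1.08% as higher and 1.22% as lower. At an unadjusted p under 0.05 the count was 20 of 32, all higher in the adult cells, against 11.1% of all genes called as higher. Means were higher in the adult cells for 31 genes (57.4% of all genes), the arrays did not overlap for 28 (33.9% of all genes), and the median difference was 1.28 log2 units (2.43-fold) against 0.09 over all genes. The size depended on which neonatal cardiomyocyte array was kept. All 32 genes were lower on replicate 2 of that group than on replicate 1, by between 0.14 and 2.19 with a median of 0.90. Of all genes, 48.1% were higher on its replicate 1. Fibroblast replicate 2 was above replicate 1 in 21 of the 32 (53.8% of all genes), and adult replicate 1 above replicate 2 in 18 (47.8% of all genes). The median difference from the adult cells was 0.76 without replicate 2 and 1.84 without replicate 1. Without replicate 1 the calls were Cpt2, Hadh and Plin5, and there were 0 without replicate 2, without either fibroblast array and without either adult array, since the fibroblast arrays enter the shared estimate of the spread.

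**Figure D2:**
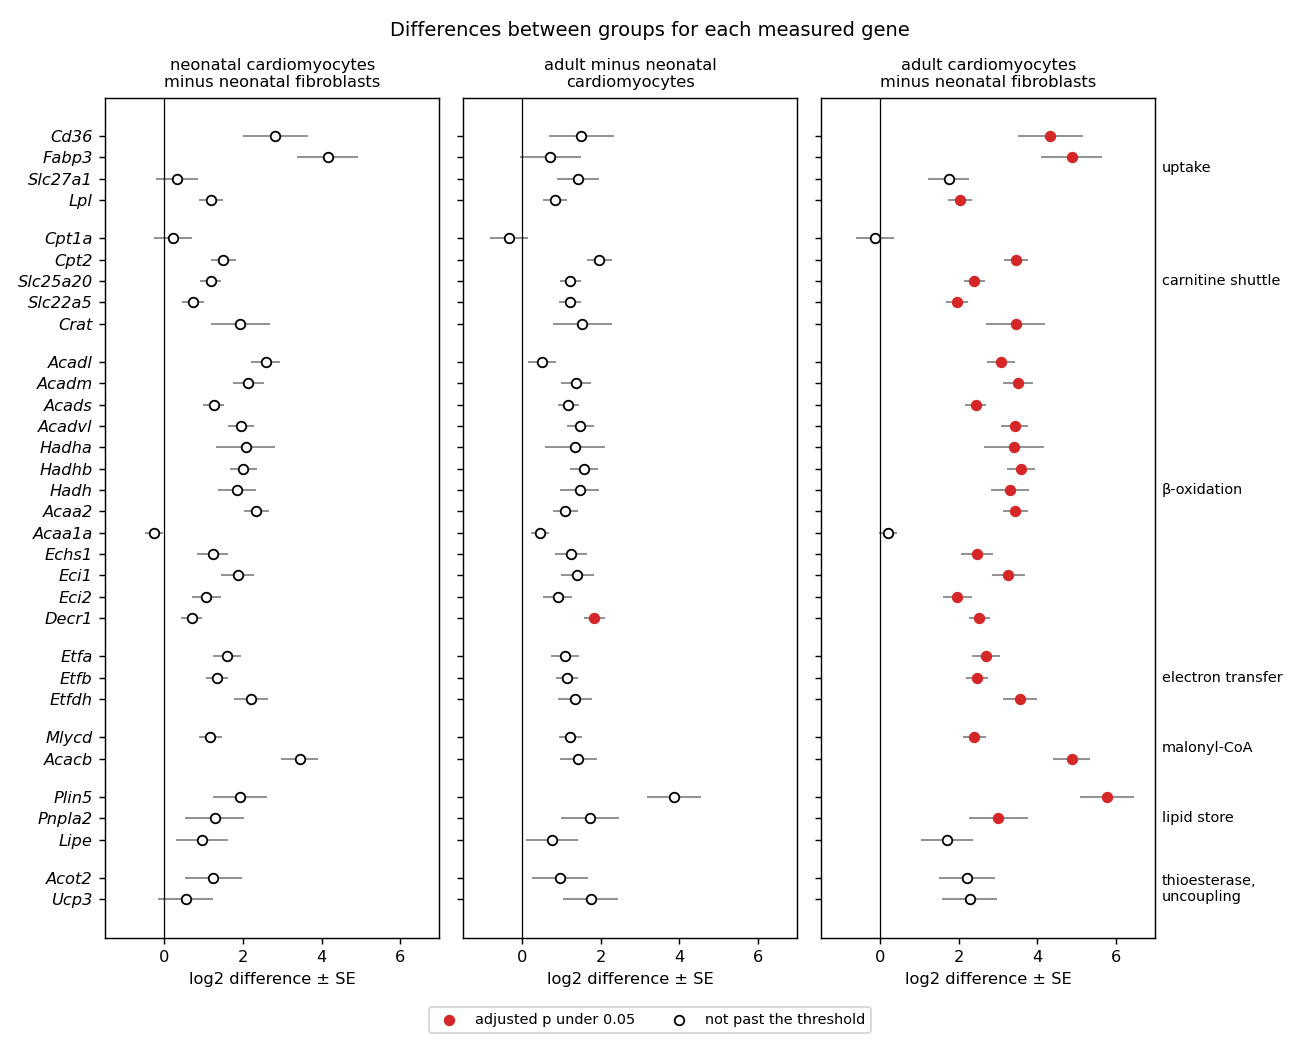
Log2 difference of each of the 32 genes in the 3 comparisons, with its SE from limma as bars and n = 2 arrays a group. Filled points passed the adjusted threshold of 0.05: 0 genes for neonatal cardiomyocytes against fibroblasts, 1 for adult against neonatal cardiomyocytes and 26 for adult cardiomyocytes against fibroblasts.

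The difference between adult cardiomyocytes and fibroblasts is by construction the sum of the cell type and the age difference, which share the neonatal cardiomyocyte arrays. By size, without regard to sign, the cell type difference was the larger for 20 genes and the age difference for 12. This split depended on the neonatal cardiomyocyte array kept. The median cell type and age differences were 0.97 and 1.84 without neonatal cardiomyocyte replicate 1, and 1.95 and 0.76 without replicate 2. Whether the cell type and age differences are unequal was not tested for any gene.

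The promoters of these genes are where nuclear receptors such as PPAR alpha and the estrogen-related receptors are known to act, by binding repeats or extended forms of the hexamer AGGTCA. RefSeq windows (GRCm38.p6) from 250 bases before to 50 after a transcript start were found for 28 of the 32 measured genes, and not for Lpl, Crat, Decr1 and Acaa2. The hexamer, on either strand, was in the window of 8 of the 28 genes (28.6%): Acacb, Acadm, Acadvl, Cd36, Cpt1a, Echs1, Plin5 and Ucp3. It was in the windows of 16.5% of 14452 genes. The estrogen-related receptor form TNAAGGTCA, which contains the hexamer, was in 0 of the 28 and in 1.20% of all genes, and the direct repeat AGGTCANAGGTCA, which holds it at both ends, in 0 of the 28 and in 0.048% of all genes. Stretches around the hexamer are shown for 4 genes that rose in adult cells over fibroblasts and for Cpt1a, which holds the hexamer too and whose levels overlapped. Each is written along the gene's own strand, with the hexamer in capitals, as AGGTCA or as its reverse complement TGACCT.
Cd36, chr5:17836084-17836146, minus strand: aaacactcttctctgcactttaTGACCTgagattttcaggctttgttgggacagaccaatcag
Plin5, chr17:56117678-56117753, minus strand: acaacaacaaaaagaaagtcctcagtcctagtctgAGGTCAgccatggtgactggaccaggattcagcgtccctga
Acadvl, chr11:70015475-70015550, minus strand: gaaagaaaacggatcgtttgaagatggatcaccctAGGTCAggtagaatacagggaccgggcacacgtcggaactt
Echs1, chr7:140116464-140116539, minus strand: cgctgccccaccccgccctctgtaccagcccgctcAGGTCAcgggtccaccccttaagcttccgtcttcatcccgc
Cpt1a, chr19:3323172-3323247, plus strand: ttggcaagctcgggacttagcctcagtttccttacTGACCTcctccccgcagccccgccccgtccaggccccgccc
These matches describe letters in the windows and not binding.

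Among the uptake genes, the fatty acid translocase Cd36, the heart fatty acid binding protein Fabp3 and the lipoprotein lipase Lpl rose in adult cardiomyocytes over fibroblasts, and the transport protein Slc27a1 did not pass. Cd36 lay at 12.66 and 12.59 in adult cells, 12.13 and 10.11 in neonatal cardiomyocytes and 7.45 and 9.14 in fibroblasts, with no overlap between any groups. It was 20.1-fold higher in adult cells than in fibroblasts (log2 difference 4.33, SE 0.83, limma adjusted p = 0.0252). Between neonatal cardiomyocytes and fibroblasts it differed by 2.83 (adjusted p = 0.195), and between adult and neonatal cardiomyocytes by 1.51 (adjusted p = 0.337). Its spread within the neonatal groups was wide, with SDs of 1.42 and 1.20 against 0.04 in the adult cells. On its other probe sets the difference between adult cells and fibroblasts was 4.62 and 6.18. The age difference there was 1.70 and 3.15.

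Fabp3, which carries fatty acids through the cytosol, was already near the top of the range in neonatal cardiomyocytes. Its levels were 13.78 and 13.22 there, 14.14 and 14.29 in adult cardiomyocytes and 8.17 and 10.53 in fibroblasts, on arrays whose highest values were between 14.4 and 14.6. The adult cells were 29.2-fold above the fibroblasts (4.87, SE 0.77, limma adjusted p = 0.0165), and neonatal cardiomyocytes differed from fibroblasts by 4.16 (adjusted p = 0.0846). The higher fibroblast value was on replicate 2, the array with more cardiomyocyte transcript.

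Lpl, which frees fatty acids from lipoproteins, was also abundant on the fibroblast arrays. It lay at 11.68 and 12.30 in fibroblasts, 13.47 and 12.90 in neonatal cardiomyocytes, 14.09 and 13.95 in adult cells, and rose 4.07-fold between fibroblasts and adult cells (limma adjusted p = 0.0151). Its 3 groups did not overlap. On fibroblast replicates 1 and 2, macrophage markers had medians of 11.91 and 8.79, and cardiomyocyte markers 7.72 and 11.53. The part of such cells in the Lpl values of the fibroblast arrays was not tested. Slc27a1, a long-chain fatty acid transporter with acyl-CoA synthetase activity, measured 8.89 and 7.99 in adult cells, 7.56 and 6.48 in neonatal cardiomyocytes and 7.12 and 6.29 in fibroblasts. The neonatal groups overlapped, and the difference of 1.74 between adult cells and fibroblasts had an adjusted p of 0.0769.

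In the carnitine shuttle, 4 of 5 measured genes rose in adult cardiomyocytes over fibroblasts, and the exception was Cpt1a. Cpt2, the inner membrane enzyme that returns acyl groups to coenzyme A, lay at 12.11 and 11.95 in adult cells, 10.51 and 9.64 in neonatal cardiomyocytes and 8.59 and 8.56 in fibroblasts. The fibroblast replicates were within 0.02 (SD) of their mean, and all 3 groups were apart. The rise over fibroblasts was 11.0-fold (log2 difference 3.45, SE 0.31, limma adjusted p = 0.00715). The age difference of 1.96 had an adjusted p of 0.0548.

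Slc25a20, the carnitine-acylcarnitine carrier of the inner membrane, rose by 2.40 (limma adjusted p = 0.00878), with 11.60 and 11.48 in adult cells, 10.54 and 10.10 in neonatal cardiomyocytes and 8.88 and 9.40 in fibroblasts. Slc22a5, which brings carnitine into the cell, rose by 1.95 (adjusted p = 0.0142). Crat, which moves short acyl groups onto carnitine, rose by 3.45 (adjusted p = 0.0339), with levels of 11.47 and 10.59, 10.47 and 8.54, and 8.09 and 7.06 in adult cells, neonatal cardiomyocytes and fibroblasts. For each of these 3 genes the neonatal cardiomyocyte arrays lay between the other groups without overlap.

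Cpt1a, the liver form of carnitine palmitoyltransferase 1, which is known to be present in the heart before and around birth, had no such order on the probe set used. Its levels were 10.003 and 8.62 in neonatal cardiomyocytes, 9.04 and 9.13 in fibroblasts and 8.71 and 9.21 in adult cardiomyocytes. Its highest and its lowest value were both on neonatal cardiomyocyte arrays, and all groups overlapped. The difference between adult cells and fibroblasts was -0.12 (95% interval from -1.35 to 1.11, limma adjusted p = 0.868), and its sign turned under each of the 3 scalings tried. For the cell type difference of 0.23, only 1 of its 3 probe sets had the sign of the one used. All 3 had a negative sign for adult cells against fibroblasts and against neonatal cardiomyocytes. On the other probe sets these differences were -0.84 and -1.02, and -0.74 and -0.91, with the adult arrays below all neonatal ones. Cpt1c, the brain form, fell by 3.87 in adult cells against fibroblasts (adjusted p = 0.0316), a call lost without any 1 of the fibroblast or adult arrays, and was named after its values were seen.

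Beta-oxidation was the largest group, and 12 of its 13 measured genes rose in adult cardiomyocytes over fibroblasts, with a median of 3.26 log2 units for the 13. The acyl-CoA dehydrogenases start each round, and all 4 rose. Acadl, for long chains, lay at 13.40 and 13.39 in adult cells, 13.19 and 12.61 in neonatal cardiomyocytes and 9.89 and 10.77 in fibroblasts. On the probe set used, most of its difference lay between the cell types. That difference was 2.58 for neonatal cardiomyocytes over fibroblasts (limma adjusted p = 0.0578) and 0.50 for age (adjusted p = 0.448). On its other probe set, with low levels from 3.25 to 5.56, the cell type difference was 0.68 and the age difference 1.25. Acadm, for medium chains, lay at 13.30 and 13.61, 12.44 and 11.74, and 9.53 and 10.37 for the groups as above, a rise of 11.4-fold over fibroblasts (adjusted p = 0.00877). Acadvl, for very long chains, rose by 3.42 (adjusted p = 0.00784) and Acads, for short chains, by 2.43 (adjusted p = 0.00864).

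The trifunctional protein carries out the later steps on long chains. The genes of its subunits, Hadha and Hadhb, both rose in adult cells over fibroblasts. Hadhb lay at 13.73 and 13.85 in adult cells, 12.59 and 11.85 in neonatal cardiomyocytes and 9.86 and 10.56 in fibroblasts, a rise of 11.98-fold (limma adjusted p = 0.00784). Hadha, with 12.56 and 11.95, 12.01 and 9.83, and 9.24 and 8.47, rose by 3.40 with a wider spread (SE 0.76, adjusted p = 0.0365). The adult and neonatal cardiomyocyte arrays overlapped for Hadha and not for Hadhb.

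Of the enzymes for shorter chains, the hydratase Echs1 rose by 2.46, the dehydrogenase Hadh by 3.30 and the thiolase Acaa2 by 3.44 over fibroblasts (limma adjusted p = 0.0177, 0.0144 and 0.00744). Acaa2 lay at 12.87 and 13.12 in adult cells, 12.32 and 11.47 in neonatal cardiomyocytes and 9.50 and 9.61 in fibroblasts. Its cell type difference of 2.34 (adjusted p = 0.0559) was among the closest to the threshold. The 2 genes for unsaturated chains in the isomerase family, Eci1 and Eci2, rose by 3.26 and 1.97 (adjusted p = 0.0114 and 0.0249).

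Decr1, the dienoyl-CoA reductase needed for polyunsaturated chains, was the gene called between the ages. Its levels were 12.53 and 12.46 in adult cardiomyocytes, 10.95 and 10.38 in neonatal cardiomyocytes and 9.77 and 10.18 in fibroblasts. All 3 groups were apart, and the gap between the ages was the wider. The adult cells were 3.55-fold above the neonatal cardiomyocytes (log2 difference 1.83, SE 0.27, limma adjusted p = 0.0453), and the cell type difference was 0.70 (adjusted p = 0.298). On its other probe set the cell type difference was larger, at 1.67, and the age difference was 2.40. The call for age was lost without neonatal cardiomyocyte replicate 1, without replicate 2 and without any 1 of the other 4 arrays, and also with the replicate number as a block.

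Acaa1a, the thiolase of peroxisomes, did not follow the mitochondrial enzymes. It lay at 8.40 and 8.20 in adult cells, 7.92 and 7.78 in neonatal cardiomyocytes and 8.36 and 7.85 in fibroblasts, and adult cells and fibroblasts overlapped. The difference between them was 0.19 (95% interval from -0.40 to 0.79, limma adjusted p = 0.575). Of 13 further peroxisomal genes, 6 rose and 0 fell in that comparison (10.1% and 11.0% of all genes), with a median of 1.09. Acaa1a has a near-identical copy, Acaa1b, and the array may not separate their transcripts.

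The electron transfer genes take the electrons of the acyl-CoA dehydrogenases to ubiquinone, and all 3 rose in adult cardiomyocytes over fibroblasts. The flavoprotein subunits Etfa and Etfb rose by 2.69 and 2.47 (limma adjusted p = 0.0118 and 0.00914), and the membrane dehydrogenase Etfdh by 3.56 (adjusted p = 0.0100). Etfdh lay at 13.10 and 13.01 in adult cells, 12.32 and 11.09 in neonatal cardiomyocytes and 9.30 and 9.69 in fibroblasts. For each of the 3 genes the groups did not overlap, and neonatal cardiomyocytes lay between the other groups.

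Malonyl-CoA, the inhibitor of CPT1, is made at the mitochondrial surface by the carboxylase Acacb and broken down by the decarboxylase Mlycd. Both rose in adult cardiomyocytes over fibroblasts. Acacb lay at 10.68 and 10.43 in adult cells, 9.68 and 8.59 in neonatal cardiomyocytes and 5.24 and 6.13 in fibroblasts, a rise of 29.2-fold (log2 difference 4.87, SE 0.47, limma adjusted p = 0.00769). Its cell type difference of 3.45 (adjusted p = 0.0559) exceeded that of every other gene of the 32 except Fabp3. Mlycd lay at 9.05 and 9.17, 8.28 and 7.49, and 6.78 and 6.66 for the groups as above and rose by 2.39 (adjusted p = 0.0104). The transcripts of Acacb and Mlycd were thus both highest in the adult cells, and enzyme levels were not measured. The cytosolic carboxylase Acaca is given below with fatty acid synthesis.

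Of the genes of the lipid store, Plin5 codes for a droplet protein that ties droplets to mitochondria. On the probe sets used, Plin5 had the largest difference of the 32 between adult cardiomyocytes and fibroblasts. It lay at 10.88 and 10.59 in adult cells, 7.94 and 5.81 in neonatal cardiomyocytes and 4.95 and 4.97 in fibroblasts, where it was not far above the lower quartile of the arrays (4.19 and 4.22). The adult cells were 54.8-fold above fibroblasts (log2 difference 5.78, SE 0.69, limma adjusted p = 0.00975). The age difference of 3.86 (14.5-fold, adjusted p = 0.0646) was the largest age difference of the 32 and did not pass, and the neonatal cardiomyocyte arrays were 2.13 apart.

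Pnpla2, the lipase that starts the breakdown of stored triglyceride, rose by 3.01 over fibroblasts (limma adjusted p = 0.0464), with 11.09 and 9.40 in adult cells, 9.05 and 7.99 in neonatal cardiomyocytes and 7.85 and 6.63 in fibroblasts. Lipe, the hormone-sensitive lipase, lay at 7.70 and 6.79, 7.21 and 5.79, and 6.13 and 4.94, and its difference of 1.71 had an adjusted p of 0.131. For both lipases the replicates of a group lay far apart.

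Acot2, a mitochondrial thioesterase, and Ucp3, a mitochondrial carrier induced by fatty acids, did not pass in any comparison. Acot2 lay at 10.66 and 10.69 in adult cells, 10.79 and 8.62 in neonatal cardiomyocytes and 8.17 and 8.74 in fibroblasts. One neonatal cardiomyocyte array matched the adult cells and the other matched the fibroblasts, and the difference of 2.22 between adult cells and fibroblasts had a limma adjusted p of 0.0876. Acot2 has the near-identical copy Acot1, which showed the same split in neonatal cardiomyocytes (9.56 and 5.90), and the array may not separate the 2 transcripts. Ucp3 lay at 8.36 and 6.78 in adult cells, 6.59 and 5.06 in neonatal cardiomyocytes and 5.33 and 5.25 in fibroblasts (2.28, adjusted p = 0.0784).

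**Figure D3:**
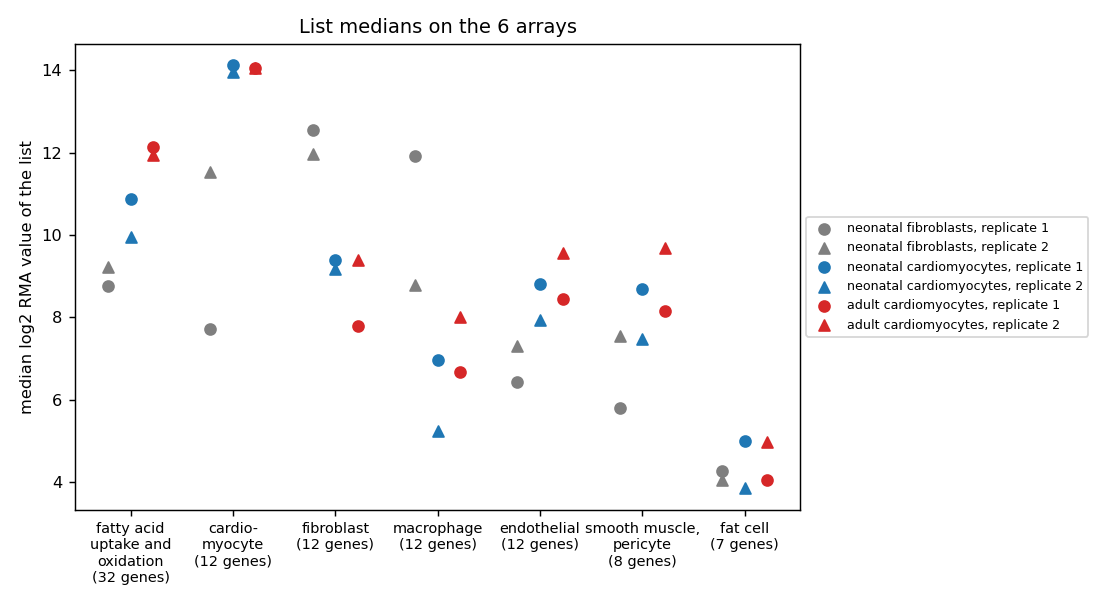
Median log2 level of the 32 genes and of the marker lists on each of the 6 arrays. The 32 genes are highest on the adult arrays (12.12 and 11.95), while the cardiomyocyte markers are level between neonatal and adult cardiomyocytes and reach 11.53 on fibroblast replicate 2.

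Marker lists were set beside these differences. Between adult and neonatal cardiomyocytes, 0 of 12 cardiomyocyte markers passed limma's adjusted threshold and 0 had an unadjusted p under 0.05, and their median difference was 0.13. These markers lay near the top of the arrays' range, where differences can be compressed, so this value is no measure of how far the 2 groups match. Of 12 macrophage markers, 0 passed the adjusted and 0 the unadjusted threshold, but 11 had higher means in the adult cells, with a median difference of 1.03. Smooth muscle and pericyte markers had a median difference of 1.17, but 5 had higher and 3 lower means, over a range from -2.54 to 3.70. Of these 8 markers, 0 passed the adjusted threshold. At an unadjusted p under 0.05 there were 4 in either direction, against 4157 of all 18193 genes. Both medians are near the 1.28 of the 32 genes, and the part of such cells in the age differences was not tested. Endothelial cells also express Cd36 and other lipid transport genes. Neonatal cardiomyocyte replicate 2 was lower than replicate 1 in several endothelial genes: Vwf lay at 7.95 and 4.21, Fabp4 at 12.39 and 7.92 and Gpihbp1 at 8.35 and 5.47 on replicates 1 and 2. The adult arrays were high in the same genes, at 8.35 and 8.35 for Vwf, 12.29 and 12.75 for Fabp4, and 9.30 and 10.65 for Gpihbp1. Of these genes only Vwf is among the 12 endothelial markers. Between adult and neonatal cardiomyocytes 0 of 12 endothelial markers passed (1 at an unadjusted p under 0.05), with a median difference of 0.25. Of the 12 markers, 9 had higher and 3 had lower means in the adult cells, so the genes named above do not stand for the list. Between adult cells and fibroblasts 3 of the 12 rose and 0 fell, with a median of 2.03. The part of endothelial transcript in the values of Cd36, Lpl and the other genes was not tested. Fat cells are a further source of such transcripts, and 0 of 7 fat cell markers passed (0 at an unadjusted p under 0.05) between adult and neonatal cardiomyocytes, with Adipoq under the lower quartile on all 6 arrays. Between adult cells and fibroblasts 1 of the 7, Cidea, rose and 0 fell (10.1% and 11.0% of all genes). All 7 had higher means in the adult cells, with a median difference of 0.27.

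Further genes of lipid metabolism, 88 measured of 95 listed, were examined in the same fit. Between adult cardiomyocytes and fibroblasts 39 rose and 10 fell, with a median difference of 1.10, against 10.1% of all genes called as higher and 11.0% as lower. Between adult and neonatal cardiomyocytes 11 rose and 0 fell (1.08% and 1.22% of all genes), and between neonatal cardiomyocytes and fibroblasts 6 rose and 0 fell (0.676% and 0.143%). These counts rested on single arrays too. In the first comparison 25 rose and 0 fell without fibroblast replicate 1, 27 rose and 4 fell without fibroblast replicate 2, 0 rose and 0 fell without adult replicate 1, and 11 rose and 0 fell without adult replicate 2. Between the ages 3 rose without neonatal cardiomyocyte replicate 1, 6 without either fibroblast array, and 0 without neonatal cardiomyocyte replicate 2 or either adult array. Between the cell types 0 rose without either adult array, without fibroblast replicate 1 and without neonatal cardiomyocyte replicate 1, and 0 with the replicate number as a block, while 12 rose and 1 fell without neonatal cardiomyocyte replicate 2. Perm1, Plin4 and Ppara rose in all 3 comparisons, which share their arrays.

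**Figure D4:**
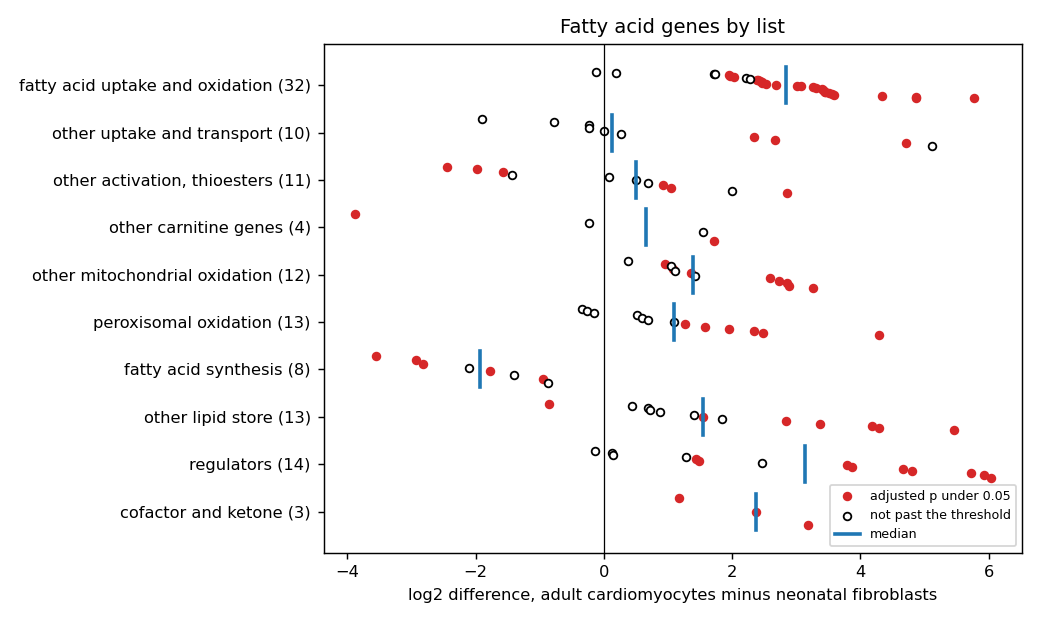
Log2 difference between adult cardiomyocytes and neonatal fibroblasts for the 32 genes and for each further list of lipid metabolism, with 1 point per gene, filled where the adjusted p was under 0.05, and a bar at each list's median. All 8 fatty acid synthesis genes lie below 0, and 31 of the 32 genes above it.

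Of the regulators, 9 of 14 rose in adult cardiomyocytes over fibroblasts and 0 fell, against 10.1% of all genes called as higher. Ppara, the nuclear receptor that responds to fatty acids, lay at 9.93 and 9.86 in adult cells, 8.12 and 7.60 in neonatal cardiomyocytes and 4.96 and 5.50 in fibroblasts. It rose by 2.63 between the cell types and by 2.04 between the ages (limma adjusted p = 0.0424 and 0.0408). Perm1, a muscle regulator of oxidative genes, rose by 3.51 and 2.21 (adjusted p = 0.0424 and 0.0432). Esrrg, an estrogen-related receptor, and Ppargc1b, a coactivator, rose between the cell types by 4.30 and 3.83 (adjusted p = 0.0441 and 0.0424), and their age differences were 0.50 and -0.04 (adjusted p = 0.562 and 0.956). The coactivator Ppargc1a lay at 11.34 and 11.21, 11.73 and 10.49, and 3.93 and 6.79 in adult cells, neonatal cardiomyocytes and fibroblasts, and rose by 5.92 between adult cells and fibroblasts (adjusted p = 0.0184). Esrra rose by 1.43 in the same comparison (adjusted p = 0.0210), but its difference was -0.41 with its probe set of largest variance, so its direction depends on the probe set. Rxrg, a partner receptor of PPARs, rose between the ages by 3.58 (adjusted p = 0.0166), from 5.44 and 5.48 in neonatal to 9.32 and 8.75 in adult cardiomyocytes. The cell type calls of Ppara, Perm1, Esrrg and Ppargc1b were lost without either adult array, without fibroblast replicate 1 and without neonatal cardiomyocyte replicate 1, with the replicate number as a block, with the mean or the largest variance of probe sets and with only the 2 groups fitted. The age calls of Ppara and Perm1 were lost without any 1 cardiomyocyte array, that of Ppara also without either fibroblast array and with the block, and that of Rxrg without neonatal cardiomyocyte replicate 2 or either adult array. Between adult cells and fibroblasts, the call of Ppargc1a was lost without either adult array and that of Esrra without any 1 fibroblast or adult array.

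Pdk4, the kinase that shuts pyruvate dehydrogenase and so spares glucose, lay at 12.54 and 12.41 in adult cells, 11.89 and 10.09 in neonatal cardiomyocytes and 5.95 and 6.94 in fibroblasts. It rose by 6.03 between adult cells and fibroblasts (65.3-fold, limma adjusted p = 0.00864). Gpihbp1, the endothelial anchor of lipoprotein lipase, rose by 4.70 in that comparison (adjusted p = 0.0335), and Fabp4, a binding protein of endothelial and fat cells, differed by 5.12 without passing (adjusted p = 0.0651). Vldlr, a receptor for lipoproteins, rose by 1.66 between the cell types (adjusted p = 0.0424). The Pdk4 call was lost without either adult array, the Gpihbp1 call without any 1 fibroblast or adult array, and the Vldlr call without neonatal cardiomyocyte replicate 1, without any 1 fibroblast or adult array and with the replicate number as a block.

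Of 13 further genes that build, coat or break down the lipid store, 6 rose and 1 fell between adult cells and fibroblasts (10.1% and 11.0% of all genes), and 3 rose and 0 fell between the ages. The gene that fell, named after its values were seen, was the droplet protein Plin2 (fell by 0.86, limma adjusted p = 0.0305), and it did not pass with any of the 3 other scalings or without any 1 fibroblast or adult array. Dgat2, the last enzyme of triglyceride synthesis, rose by 5.46 between adult cells and fibroblasts (limma adjusted p = 0.00921). Between the ages, the acyltransferases Gpam and Agpat2 rose by 2.11 and 1.99 (adjusted p = 0.0198 for both), and the droplet protein Plin4 by 1.99 (adjusted p = 0.0332). Acad11, an acyl-CoA dehydrogenase outside that list, rose between the ages by 2.16 (adjusted p = 0.0246). The Dgat2 call was lost without either adult array, and the age calls of Gpam, Agpat2, Plin4 and Acad11 without any 1 of the 4 cardiomyocyte arrays.

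Fatty acid synthesis went the other way. Of its 8 measured genes, 5 fell in adult cardiomyocytes against fibroblasts, 0 rose, and all 8 had lower means, with a median of -1.93, against 11.0% of all genes called as lower. The 5, named after their values were seen, were the desaturase Scd2, the elongases Elovl1 and Elovl6, the synthase Fasn and the cytosolic carboxylase Acaca. Fasn lay at 7.61 and 7.29 in adult cells, 9.03 and 9.09 in neonatal cardiomyocytes and 9.59 and 8.85 in fibroblasts, a fall of 1.77 (limma adjusted p = 0.0185). Scd2 fell by 3.55 (adjusted p = 0.0213), and Acaca by 0.94 (adjusted p = 0.0474), while its mitochondrial counterpart Acacb rose. The neonatal groups overlapped for Fasn and Scd2. All 5 calls were lost without fibroblast replicate 1 and without either adult array, and that of Acaca also with each of the 3 other scalings.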

How the data were processed

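Groups followed the source name. The deposited table holds the authors' log2 values per probe set, made with RMA per the submitters' processing notes. That method corrects background, normalises by quantiles and summarises probes. Neither its version nor joint processing of the 6 arrays is stated there. It gives no detection call, and differences near the floor or top can be compressed. The number of arrays limits the precision.

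Of 45101 probe sets (64 controls), the platform annotation named 34945 to 1 gene, 932 to several, and left 9160 unnamed here. Each of the 18193 genes was represented by its probe set with the highest mean over the 6 arrays.

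The 3 group means were fitted to all 6 arrays in limma 3.58.1 (R 4.3.3), with 3 residual and 2.18 prior degrees of freedom. Tests were two-sided and adjusted by Benjamini-Hochberg over all genes, with a threshold of 0.05. "Rose" and "fell" are kept for genes past it. An exact permutation test of 2 arrays against 2 cannot pass that threshold and was not used. The script was tested on simulated data.

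The 34 genes, the further lists and the markers were chosen with earlier results of these data known. All measured members are described. Of the further genes, the text names up to 6 per comparison with the largest called differences, Ppara, Ppargc1a, Esrra, Pdk4, Acot1 and Fabp4, and genes stated as named after their values were seen. Alternatives changed the grouping (titles), arrays, probe set, scaling, filter, variance and replicate block. Motifs were searched in RefSeq promoter windows.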

Additional observations from a re-analysis of the deposited data

How the results depend on the processing

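The comparison of neonatal cardiomyocytes with fibroblasts is called the cell type comparison here, adult with neonatal cardiomyocytes the age comparison, and adult cardiomyocytes with fibroblasts the joint comparison. Grouping by the titles, against the markers, changed most: it left 0 genes called in each comparison among the 32, member medians of -0.68, 2.35 and 1.77, and 0, 114 and 137 calls over all genes. The log2 cell type differences that turned sign were Cd36 -1.85, Fabp3 -1.46, Slc27a1 -0.12, Lpl -0.60, Cpt1a -0.74, Cpt2 -0.42, Slc25a20 -0.48, Slc22a5 -0.24, Crat -0.45, Acadl -0.73, Acadm -0.77, Acads -0.45, Acadvl -0.65, Hadha -0.71, Hadhb -0.72, Hadh -0.73, Acaa2 -0.48, Echs1 -0.63, Eci1 -0.86, Eci2 -0.71, Decr1 -0.49, Etfa -0.72, Etfb -0.49, Etfdh -0.81, Mlycd -0.34, Acacb -0.99, Plin5 -1.08, Lipe -0.12, Acot2 -1.37, Ucp3 -0.73, Esrrg -0.9995, Ppargc1b -0.82, Perm1 -0.35, Ppara -0.53, Plin4 -0.32, Vldlr -0.19, Ppargc1a -2.05, Pdk4 -1.39, Acot1 -2.31 and Fabp4 -2.85, and Acaa1a at 0.18; Cpt1a turned in the age comparison (0.13) and Acot1 in the joint one (-0.13).

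Without both neonatal replicate 1 arrays the medians were 0.87, 1.84 and 2.54, with 0 calls for age among the 32 and 0, 0 and 717 over all genes. Cell type differences then turned for Cpt1a (-0.51), Acot2 (-0.12), Ucp3 (-0.19), Acot1 (-0.36) and Fabp4 (-0.10), and the age difference for Cpt1a (0.34). Leaving out 1 array at a time gave 0 to 8, 0 to 3 and 0 to 26 called members, medians of 0.97 to 1.95, 0.76 to 1.84 and 2.54 to 3.08, and 0 to 437, 0 to 164 and 0 to 3823 calls over all genes, with the lone array of a group assumed to vary like the others. The ranges that crossed 0 were, for cell type, Slc27a1 (-0.22 to 0.85), Cpt1a (-0.47 to 0.92) and Ucp3 (-0.23 to 1.30), for age, Cpt1a (-1.04 to 0.34), Acot2 (-0.12 to 2.06), Ppargc1a (-0.45 to 0.79) and Acot1 (-1.78 to 1.88), and for the joint comparison, Cpt1a (-0.37 to 0.12) and Acaa1a (-0.057 to 0.45). Slc27a1 was at -0.10 without fibroblast replicate 2.

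With the replicate block, 0, 3 and 29 members were called (Cpt2, Pnpla2 and Slc27a1 for age, in place of Decr1) and 0, 607 and 4811 genes. The labels do not say that a number marks a shared preparation or day. The deviations of same-numbered arrays correlated at 0.18, 0.27 and 0.21 between the 3 groups. The records of same-numbered arrays also follow each other in the deposit, apart from those of the other number. The block therefore splits the arrays as the deposit order does. Whether a number marks a shared batch was not tested.

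Of the other choices, 3 members were called for cell type with median centring, upper quartile centring or a trended robust variance (Acaa2, Acacb and Acadl) and 7 among genes above the median level. For age, 0 were called with the mean of all probe sets, the probe set of largest variance, quantile normalisation or only the 2 groups compared, and 3 with upper quartile centring or among genes above the median level. The joint median was 2.49 with the mean of all probe sets and 3.12 with upper quartile centring. Over all genes, cell type calls were 59 with the mean of probe sets, 0 with the largest variance or only 2 groups, 261 and 309 with median and upper quartile centring, and 384 above the median level, and age calls 164 with only 2 groups. Upper quartile centring moved the median of all genes from 0.09 to 0.31 (age) and 0.36 (joint), and the split of higher and lower calls from 196 and 222 to 336 and 238, and from 1829 and 2000 to 2610 and 1634. Cpt1a turned in the joint comparison with median centring (0.022), upper quartile centring (0.15) and quantile normalisation (0.10), and for cell type with the probe set of largest variance (-0.11). Esrra turned for age with the mean (-0.51) and the largest variance (-1.35) of probe sets and in the joint comparison with the latter (-0.41), and Ppargc1a for age with the mean (-0.19). The cause of these changes was not tested. Levels near the floor, as for Plin5 in fibroblasts, and near the top, as for Fabp3, limit what the arrays can show.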
